A study of Mus musculus with 36 samples.

Results

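The 32 genes described here belong to the endoplasmic reticulum (ER) stress pathway and the integrated stress response. They were taken by gene symbol as members of these pathways, and all 32 were found among the 57126 gene IDs listed for primordial germ cells (PGCs) and the 56262 listed for gonads. RNA sequencing covered 36 libraries in 12 groups of 3. They came from mouse fetuses that developed under intrauterine hyperglycemia (IUHG) and from control fetuses, whole female gonads at embryonic day E13.5 and PGCs from E12.5 through E13.5 to E16.5. Every sample is labelled as wild-type in genotype. Per the methods, IUHG dams received 120 mg/kg streptozotocin, a toxin of insulin-producing cells, on day 3.5 of pregnancy and were kept where blood glucose exceeded 14 mM at E6.5; no injection is described for controls. Gonads came from ICR mice, with 4 pairs of gonads pooled in a sample. PGCs came from Oct4-EGFP mice, whose germ cells carry a green fluorescent reporter, and each sample pooled 20 to 30 fetuses whose gonads were digested and sorted for EGFP. The E13.5 and E16.5 PGCs were labelled female (F) or male (M), and the labels of E12.5 PGCs give no sex. The methods describe telling female from male gonads at all 3 stages.

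Proteins that enter the ER are folded there by chaperones led by *Hspa5* (BiP). When unfolded protein builds up, 3 sensors in the ER membrane respond: *Ern1* (IRE1), which splices the *Xbp1* mRNA, *Atf6*, which is cut to release a transcription factor, and *Eif2ak3* (PERK), which phosphorylates the translation factor eIF2. *Eif2ak4* (GCN2) does the same when amino acids run short; the shared outcome, lower general translation with more ATF4 protein, is the integrated stress response. RNA levels do not show splicing, cleavage or phosphorylation, so the values below are transcript levels of sensors, effectors and target genes.

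The groups of target genes differ in their promoters, which is why 5 of them are shown. The ER stress response element (ERSE), bound by ATF6 and XBP1 with NF-Y, reads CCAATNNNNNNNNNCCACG, and the element bound by ATF4 with C/EBP partners (CARE) reads TGATGNAA. Both strands of the 250 bases before each transcription start were searched in RefSeq promoters of build GRCm38.p6, where 28 of the 32 genes had an entry; *Manf*, *Ppp1r15b*, *Atf6* and *Hyou1* had none. Capitals mark the ERSE matches in the first 4 sequences and the CARE match in the last, read 5′ to 3′ along the gene's strand. The intervals are chr2:34771840-34772089 (+) for *Hspa5*, chr10:86705445-86705694 (−) for *Hsp90b1*, chr8:84846932-84847181 (−) for *Calr*, chr15:88819396-88819645 (+) for *Creld2* and chr6:7693210-7693459 (−) for *Asns*.
Hspa5: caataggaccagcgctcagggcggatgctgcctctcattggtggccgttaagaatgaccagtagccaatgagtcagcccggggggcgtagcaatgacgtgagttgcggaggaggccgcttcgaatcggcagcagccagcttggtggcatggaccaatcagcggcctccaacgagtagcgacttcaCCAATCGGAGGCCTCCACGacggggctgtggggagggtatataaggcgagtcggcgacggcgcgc
Hsp90b1: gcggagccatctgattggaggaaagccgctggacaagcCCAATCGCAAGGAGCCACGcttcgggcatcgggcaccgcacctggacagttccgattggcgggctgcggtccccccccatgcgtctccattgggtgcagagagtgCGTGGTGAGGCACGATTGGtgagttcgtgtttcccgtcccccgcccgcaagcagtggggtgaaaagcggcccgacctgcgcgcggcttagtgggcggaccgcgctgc
Calr: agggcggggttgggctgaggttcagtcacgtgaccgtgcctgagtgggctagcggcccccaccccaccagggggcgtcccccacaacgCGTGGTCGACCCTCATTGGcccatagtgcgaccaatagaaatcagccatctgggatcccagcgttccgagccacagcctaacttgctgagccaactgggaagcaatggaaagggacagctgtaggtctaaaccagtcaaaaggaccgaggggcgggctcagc
Creld2: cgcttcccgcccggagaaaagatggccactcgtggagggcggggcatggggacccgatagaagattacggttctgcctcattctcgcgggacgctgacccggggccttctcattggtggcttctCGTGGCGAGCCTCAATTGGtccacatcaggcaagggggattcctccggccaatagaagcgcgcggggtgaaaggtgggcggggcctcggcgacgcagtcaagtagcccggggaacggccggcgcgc
Asns: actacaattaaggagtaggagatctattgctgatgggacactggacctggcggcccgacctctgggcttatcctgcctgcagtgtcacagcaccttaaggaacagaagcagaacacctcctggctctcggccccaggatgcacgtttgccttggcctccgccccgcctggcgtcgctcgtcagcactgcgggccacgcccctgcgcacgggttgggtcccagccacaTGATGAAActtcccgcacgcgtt
ERSE letters occurred in 37 of 32851 promoters (0.113%) and in 8 of the 28 genes with an entry, namely *Hspa5*, *Hsp90b1*, *Calr*, *Canx*, *Pdia6*, *Dnajc3*, *Creld2* and *Syvn1*; the first 7 are among the 12 chaperone and folding genes searched. CARE letters occurred in 1134 promoters (3.45%) and in 4 of the 28, *Herpud1*, *Atf3*, *Asns* and *Chac1*. A second ER stress motif, TGACGTGG, occurred in 185 promoters (0.563%) and in none of the 28 genes. None of the 28 held both ERSE and CARE letters. A match is a description of letters, not evidence of binding, and no match says only that the letters are not in this window.

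**Figure D1:**
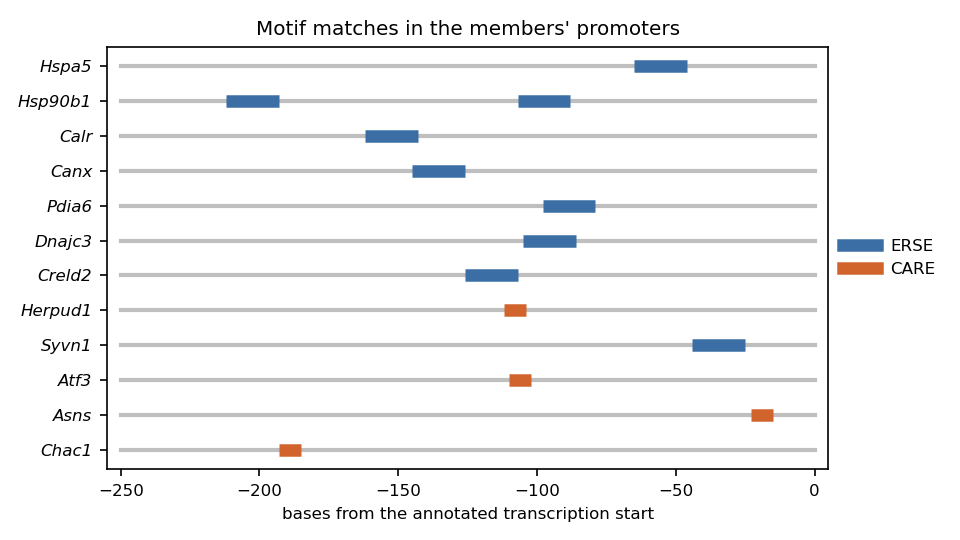
Motif matches in the promoters of the 12 genes that hold one. Each row is a gene, the horizontal axis is the distance in bases before the transcription start, and coloured blocks mark ERSE and CARE letters on either strand. The ERSE blocks begin between 212 and 44 bases before the start, and the CARE block of Asns begins 23 bases before it.

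Levels are given in TPM, a read share scaled by gene length and by the total of the library. The library sizes implied by the deposited coverage ranged from 3.89 to 4.95 aligned gigabases in gonads and from 3.25 to 8.32 in PGCs. All 6 germ cell markers listed were above 1 TPM in every group, at a summed 2619 to 9612 TPM in PGC libraries and 500.0 to 817 TPM in whole gonads. In libraries labelled E13.5F and E16.5F PGCs the 4 Y-linked genes summed to at most 0.601 TPM. Some libraries stood apart, and results that rest on them are given with and without them. Control gonad replicate 1 carried 51.3 TPM of the 4 Y-linked genes, which were at 0 in the other 5 gonad libraries, and 178 TPM of *Amh*, a Sertoli cell hormone, against 0.649 to 1.48 TPM in the others. IUHG E13.5F PGC replicate 3 correlated with its 2 partners at r of 0.922 and 0.927, against 0.977 between those. In IUHG E16.5F PGCs replicates 1 and 2 correlated at 0.902, the lowest value of any group, and with replicate 3 at 0.957 and 0.965, and replicate 3 carried 293 TPM of blood genes against 8.06 and 10.84 TPM. At E12.5, the Y-linked sum was 194 to 212 TPM in control and 130 to 154 TPM in IUHG libraries, neither of which is labelled with a sex. P-values measure the spread between the 3 pooled samples of a group, and in bulk RNA fewer cells of a type and less RNA per cell cannot be told apart.

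ER chaperone and folding genes made up most of the signal. Their 14 transcripts summed to 4107 ± 39.9 TPM in control gonads (mean ± SD, n = 3, as in all groups) and, in control PGCs, to 4064 ± 172 at E12.5, 3737 ± 266 at E13.5F, 2906 ± 112 at E13.5M, 6907 ± 48.8 at E16.5F and 3023 ± 28.3 at E16.5M. E16.5F PGCs therefore had the highest sum, above every library of the other control groups, and these 14 genes alone took 0.691% of their TPM. E13.5M and E16.5M lay lowest, with ranges of 2778 to 2983 and 2991 to 3046 that did not overlap, whereas those of E12.5 (3928 to 4257) and E13.5F (3449 to 3974) did. Averaged over the PGC groups, *Hspa5* (1001 TPM) and *Hsp90b1* (716 TPM), an ER member of the HSP90 family, were highest, whereas *Atf5* (0.762 TPM) and *Chac1* (1.64 TPM), a glutathione-degrading enzyme, were lowest. In gonads *Calr* (846 TPM), the lectin chaperone calreticulin, and *Hsp90b1* (677 TPM) were highest and *Trib3* (7.03 TPM) and *Chac1* (0.430 TPM) lowest. Gonads and PGCs came from different library kits, aligners and genome builds, so their levels stand side by side without a test.

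**Figure D2:**
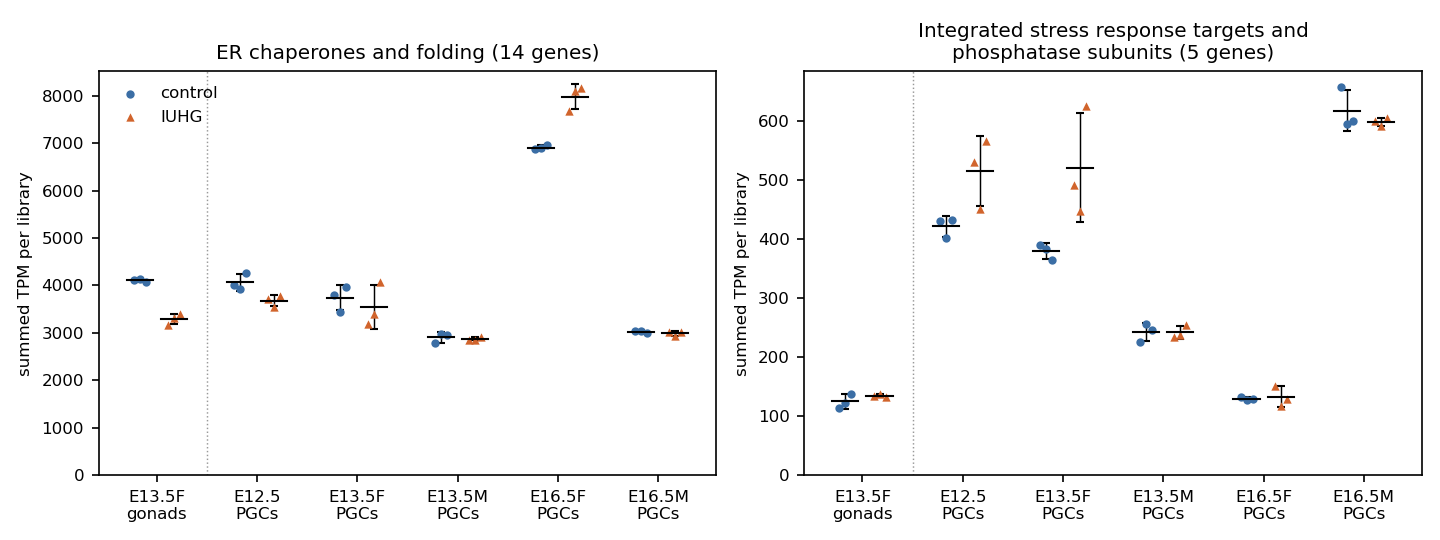
Summed TPM per library (vertical axes, from 0) of the 14 ER chaperone and folding genes and of the 5 integrated stress response targets and phosphatase subunits, by group, with circles for controls, triangles for IUHG and lines for the mean ± SD. Control E16.5F PGCs sit between 6868 and 6962 TPM for chaperones, and E16.5M PGCs between 594 and 656 TPM for the second set.

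The sensors were transcribed at far lower levels. In control PGCs, mean *Ern1* ran from 1.61 TPM at E13.5M to 9.02 TPM at E16.5F, *Atf6* from 1.81 TPM at E12.5 to 8.91 TPM at E16.5F, *Eif2ak3* from 2.88 TPM at E16.5M to 11.0 TPM at E13.5F, and *Eif2ak4* from 3.32 TPM at E16.5M to 6.37 TPM at E16.5F. In control gonads the same genes were at 16.47, 13.6, 18.9 and 24.7 TPM. *Xbp1* stood higher, from 30.9 TPM at E16.5M to 85.8 TPM at E12.5. Of the transcription factors, *Atf4* was at 33.6 to 84.5 TPM in control PGCs and 202 TPM in gonads, and *Ddit3* (CHOP), which is linked to apoptosis under prolonged stress, climbed from 8.74 TPM at E12.5 to 93.1 TPM at E16.5M.

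Control PGCs at E13.5 were compared with those at E12.5 in each sex, against the same E12.5 libraries. Tests used limma on log2(TPM + 1) with adjustment over all genes tested; a PGC gene is said to be called at an adjusted p under 0.01 with a change of over 1 on the log2 scale (2-fold), and genes at an adjusted p under 0.05 are counted as well. Going to E13.5M, 12 of the 14 chaperone genes fell, with a group median of −0.58 log2 against −0.03 for all genes. In all, 20 of 30 members passed an adjusted p of 0.05, 5 higher and 15 lower. Of all genes 60.9% did, 28.8% higher and 32.1% lower. *Asns*, asparagine synthetase, was at 328, 299 and 323 TPM at E12.5 and at 97.6, 116 and 113 TPM at E13.5M, and fell by 1.54 on the log2 scale (SE 0.08, limma adjusted p = 1.7e-07). *Canx*, the membrane-bound relative of calreticulin, fell by 1.24 (adjusted p = 4e-07). *Ddit3* rose by 1.32 and *Atf3*, an early stress-induced repressor, by 1.21. Called were these 4 of 30 members, beside 16.2% of all genes.

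Going to E13.5F, the chaperones moved in both directions: 4 rose and 6 fell. *Dnajc3* (P58IPK) and *Dnajb11* (ERdj3), co-chaperones that load clients onto BiP, rose by 1.29 and 1.01 (limma adjusted p = 2.1e-05 and 5.3e-06), the ER ubiquitin ligase gene *Syvn1* rose by 1.09 and *Atf3* by 2.36 from an E12.5 mean of 0.645 TPM. *Xbp1* went from 91.0, 75.3 and 91.2 TPM to 42.5, 31.2 and 36.3 TPM and fell by 1.21 (SE 0.14, adjusted p = 4.9e-05). Its groups did not overlap, as was the case at 63.3% of all genes. Called were 5 of 31 members against 25.4% of all genes; the median over all genes shifted by 0.27. At an adjusted p of 0.05 (57.8% of all genes, 38.1% higher and 19.7% lower), 12 members rose and 8 fell. Under median-of-ratios scaling, which centres the gene ratios, 9 rose and 12 fell. Here and below, the shares of all genes are from TPM, and none is given under this scaling.

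From E13.5 to E16.5 *Hspa5* rose in female PGCs, and in male PGCs it did not pass the test; the difference between these changes was not itself tested. In females *Hspa5* was at 670, 587 and 688 TPM at E13.5 and at 2297, 2382 and 2291 TPM at E16.5, a rise of 1.84 on the log2 scale (SE 0.08, limma adjusted p = 2e-07). In males the E16.5 values of 566, 561 and 542 TPM lay beside 564, 563 and 583 TPM at E13.5, a difference of −0.04 (SE 0.04, adjusted p = 0.44). Females also gained *Calr* (1.50), *Pdia6* (1.16), a disulfide isomerase, the BiP co-chaperone *Dnajb9* (1.14), *Xbp1* (1.08), *Atf3* (1.31) and *Ddit3* (2.05). Over the same interval female *Asns* fell by 2.86 (adjusted p = 4.5e-07) and *Trib3*, a pseudokinase induced by ATF4 and CHOP, fell by 3.73 (adjusted p = 5e-05), from 23.1, 21.2 and 24.5 TPM to 0, 0.649 and 2.50 TPM. *Manf*, a secreted ER stress protein, fell by 1.00. Called in females were 10 of 32 members, beside 28.2% of all genes. At an adjusted p of 0.05 (53.8% of all genes, 34.3% higher and 19.6% lower), 15 rose and 7 fell (the median over all genes shifted by 0.31), or 12 and 9 under median-of-ratios scaling.

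In males both the chaperones and the target genes of the ATF4 arm moved in both directions. *Asns* rose by 1.97 (SE 0.08, limma adjusted p = 1.1e-07), from 97.6, 116 and 113 TPM to 461, 413 and 411 TPM, and *Creld2*, an ER-resident stress-induced protein, rose by 1.96, from 172, 201 and 196 TPM to 732, 742 and 748 TPM. *Ddit3* (1.95), *Chac1* (1.69), the degradation adaptor *Herpud1* (1.63), *Atf3* (1.48) and *Dnajb11* (1.48) rose too. By contrast *Sdf2l1*, a BiP-associated ER protein, fell by 2.36 (SE 0.09, adjusted p = 1.1e-07), and *Trib3* fell by 2.03, *Manf* by 1.72, *Hyou1*, a nucleotide exchange factor for BiP, by 1.63, *Calr* by 1.42, *Pdia4* by 1.36 and *Atf4* itself by 1.31. Called in males were 20 of 32 members beside 51.0% of all genes; 13 rose and 14 fell at an adjusted p of 0.05 (81.4% of all genes, 55.5% higher and 25.9% lower), while the median over all genes shifted by 0.62, and median-of-ratios scaling gave 11 and 17.

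**Figure D3:**
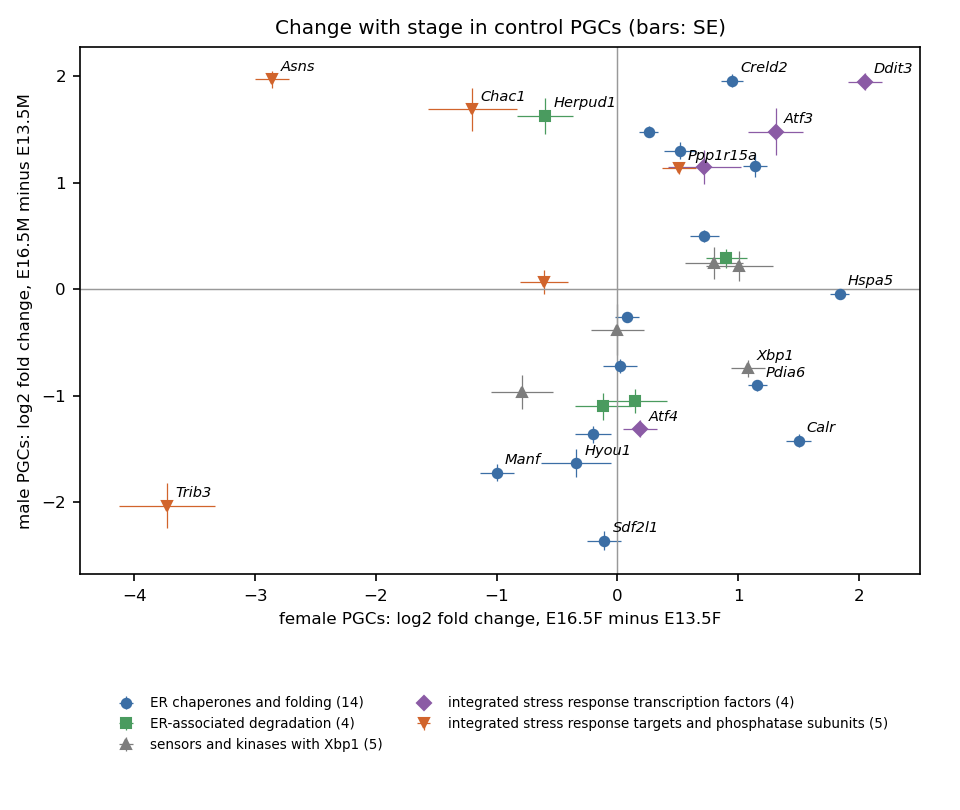
Log2 change from E13.5 to E16.5 in control PGCs of each member, females on the horizontal and males on the vertical axis, with bars for the SE and colours and shapes for the roles. Hspa5 lies at 1.84 in females and −0.04 in males, and Asns at −2.86 in females and 1.97 in males.

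By E16.5 every one of the 32 genes differed between the sexes in controls (limma adjusted p under 0.05), 23 higher and 9 lower in females; 72.1% of all genes did so, 33.2% higher and 38.9% lower. The sexes did not overlap at any member, where 74.9% of all genes showed no overlap. Higher in females were 13 of 14 chaperones, 3 of 4 degradation genes and 5 of 5 genes in the sensor group, and lower were 5 of 5 integrated stress response targets and phosphatase subunits. *Calr* was at 911, 907 and 1002 TPM in females and 152, 151 and 144 TPM in males, a difference of 2.65 (SE 0.06, adjusted p = 1.2e-07). *Sdf2l1* differed by 2.74, *Pdia6* by 2.37, *Hspa5* by 2.06 (SE 0.04, adjusted p = 1e-07), *Pdia4* by 1.98 and *Edem1*, which directs misfolded glycoproteins to degradation, by 1.98. The exception among chaperones was *Creld2*, at 346, 369 and 338 TPM in females and lower by −1.08 on the log2 scale. *Pdia3* was 0.18 higher in TPM and −0.09 under median-of-ratios scaling, which gave 20 members higher and 9 lower; called were 22 of 32, beside 50.9% of all genes.

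Among the stress response targets, *Asns* was at 45.3, 38.1 and 32.2 TPM in E16.5F and at 461, 413 and 411 TPM in E16.5M, a difference of −3.45 (SE 0.13, limma adjusted p = 4.6e-07). *Trib3* (−2.74), *Chac1* (−2.24) and *Herpud1* (−1.85) were lower in females as well, and *Ddit3* by less (−0.48, adjusted p = 0.0026). *Atf4* mRNA lay the other way, at 81.1 TPM in females and 33.6 TPM in males (1.25, adjusted p = 3.2e-05). The sensors *Ern1* (1.69), *Atf6* (1.34), *Eif2ak3* (0.83) and *Eif2ak4* (0.83), and *Xbp1* (1.31), were higher in females. Blood genes summed to 5.20 to 38.5 TPM in control E16.5F and 252 to 576 TPM in control E16.5M libraries, with 5 of 6 above 1 TPM in males, and interstitial genes to 12.6 to 25.4 and 34.9 to 84.4 TPM; their part in these differences was not tested.

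Other genes of the pathways, from lists outside the 32, were compared between the sexes at E16.5 as well. Of 19 tested ATF4 target genes of amino acid supply, 15 were lower in females, beside 38.9% of all genes, and 1, *Cebpg*, was higher (0.50). *Phgdh*, the first enzyme of serine synthesis, was at 18.1 ± 3.21 TPM in females and 497 ± 18.8 TPM in males (−4.72, limma adjusted p = 1.5e-07), the stress-induced regulator *Nupr1* differed by −3.68, *Sesn2* by −2.56 and the amino acid transporter *Slc7a5* by −2.29. *Fgf21* was at 10.9 ± 2.16 TPM in males and was listed at 0 in the female libraries. Of 11 other ER folding genes, 7 were higher in females (33.2% of all genes) and 0 lower at an adjusted p of 0.05, including the disulfide oxidase *Ero1b* (2.60) and *Sil1* (1.52), a nucleotide exchange factor for BiP. From E13.5 to E16.5, *Phgdh* rose by 3.88 in males, where 12 of 19 listed ATF4 targets rose and 5 fell, beside 55.5% and 25.9% of all genes. In females 1 of 17 rose and 9 fell, beside 34.3% and 19.6% of all genes, and among those that fell were *Psat1* (−2.99) and *Pycr1* (−2.64).

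At E13.5 the sexes already differed in some of these genes. Called were 7 of 31 members, beside 29.8% of all genes. Higher in females were *Dnajc3* (1.91), *Dnajb11* (1.62), *Dnajb9* (1.62), *Asns* (1.37), *Atf3* (1.15) and *Ern1* (1.14), and lower was *Trib3* (−1.04, limma adjusted p = 3.2e-05). *Asns* thus lay higher in females at E13.5 and lower at E16.5. At an adjusted p of 0.05 (65.1% of all genes, 42.5% higher and 22.6% lower), 19 members were higher and 5 lower in females. Under median-of-ratios scaling 10 were higher and 8 lower, counts that the TPM shares of all genes do not serve as a background for. The median over all genes shifted by 0.28.

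**Figure D4:**
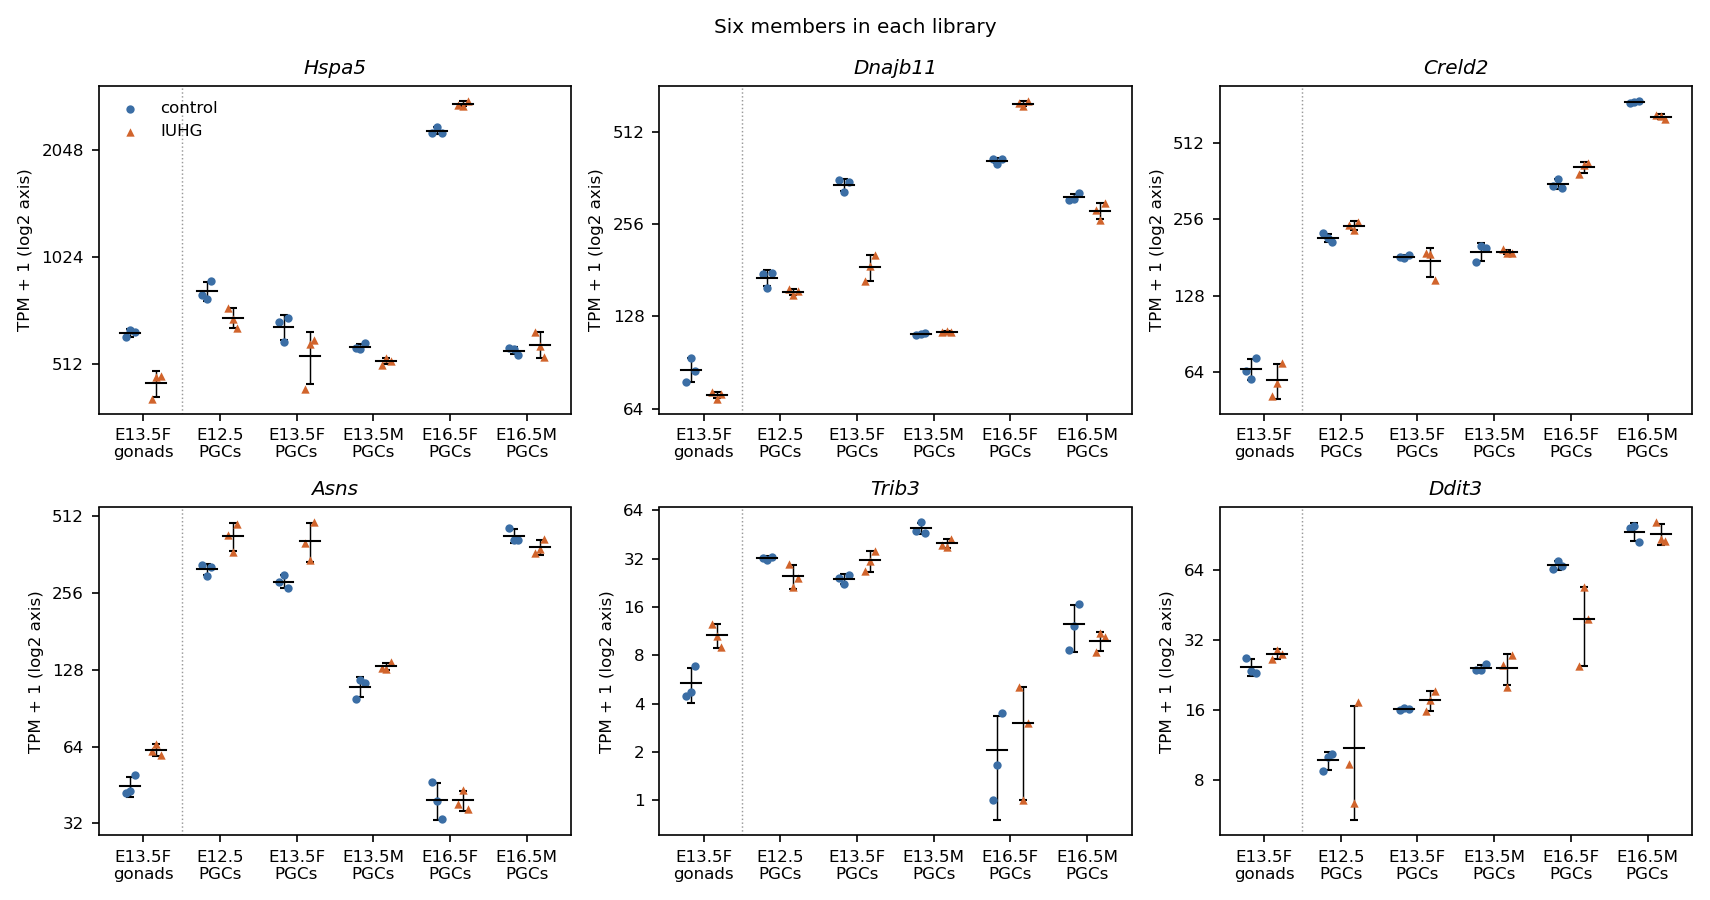
TPM + 1 on a log2 axis of 6 members in every library, with groups along the horizontal axis, circles for controls, triangles for IUHG and lines for the mean ± SD. Dnajb11 in E13.5F PGCs lies at 325 to 355 TPM in controls and 166 to 202 TPM under IUHG, and in E16.5F PGCs at 402 to 416 and 620 to 645 TPM.

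In whole E13.5F gonads 4 of the 14 chaperone genes fell under IUHG, *Hspa5*, *Hsp90b1*, *Calr* and *Pdia3*. Summed chaperone TPM was 4113, 4143 and 4064 in controls and 3172, 3308 and 3394 under IUHG, and 13 of the 14 genes were lower, with a median of −0.24 log2 where the median of all genes was 0.01. *Hspa5* was at 607, 637 and 629.6 TPM in controls and at 407, 469 and 473 TPM under IUHG, and fell by 0.48 (SE 0.06, limma adjusted p = 0.012). *Hsp90b1*, at 793, 800.4 and 757 TPM against 569.6, 586 and 558 TPM, fell by 0.45 (SE 0.04, adjusted p = 0.003). In both genes every IUHG library lay under every control library. *Calr* fell by 0.37 (adjusted p = 0.016) and the disulfide isomerase *Pdia3* by 0.26 (adjusted p = 0.017), whereas *Pdia4* (−0.24) and *Manf* (−0.25) had an adjusted p of 0.051.

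Of the 4 stress response targets and phosphatase subunits tested in gonads, 2 rose and 1 fell. *Trib3* was at 3.45, 3.74 and 5.88 TPM in controls and at 11.6, 9.57 and 7.96 TPM under IUHG, and rose by 1.01 (SE 0.20, limma adjusted p = 0.041). It was the 1 member called in gonads, where the threshold was an adjusted p under 0.05 with at least a 2-fold change and 0.612% of all genes were called. *Asns*, at 41.0, 41.7 and 48.4 TPM against 60.5, 64.7 and 58.3 TPM, rose by 0.48 (SE 0.08, adjusted p = 0.025). *Ppp1r15a* (GADD34), the stress-induced subunit that directs a phosphatase to eIF2, was at 31.2, 33.7 and 43.3 TPM against 19.6, 19.1 and 22.6 TPM and fell by 0.78 (SE 0.12, adjusted p = 0.023). At these 3 genes the control and IUHG libraries did not overlap. The factors themselves did not pass: *Atf4* was at 202 and 163 TPM (−0.31, adjusted p = 0.14), and *Ddit3* at 23.5 and 27.0 TPM (adjusted p = 0.25). Outside the 32, the serine synthesis gene *Psat1* rose by 0.36 (adjusted p = 0.031), 1 of 20 ATF4 targets tested.

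In all, 7 of 31 tested members passed an adjusted p of 0.05 in gonads, 2 higher and 5 lower, where 2.47% of all genes did (1.43% higher and 1.05% lower); 15 members were lower without overlap (11.3% of all genes) and 4 higher (14.5%). Leaving out control replicate 1, the library with Y-linked and *Amh* transcripts, *Hsp90b1* (−0.45, limma adjusted p = 0.011), *Hspa5* (−0.50, 0.02), *Calr* (−0.36, 0.033), *Pdia3* (−0.26, 0.034), *Ppp1r15a* (−0.88, 0.02) and *Asns* (0.44, 0.047) still passed. *Trib3* did not (0.89, adjusted p = 0.08), and *Atf3*, at 4.84, 11.8 and 32.3 TPM in controls and 3.45, 2.65 and 3.504 TPM under IUHG, then fell by 2.30 (adjusted p = 0.025; 0.12 with all libraries). *Hsp90b1* passed with any 1 library left out (adjusted p from 0.0088 to 0.017); *Hspa5* did not pass without control replicate 2 (0.053), *Calr* did not in 2 of 6 such fits, *Ppp1r15a* in 3, *Asns* in 4, *Pdia3* in 4 and *Trib3* in 5. With no filter on low TPM none of the 7 passed (adjusted p of *Hsp90b1* = 0.056), and with the replicate number as a block *Pdia3* (0.063), *Asns* (0.072) and *Trib3* (0.11) did not. Other transcripts moved with these groups. All 6 blood genes were measured and summed to 11340 to 14352 TPM in control and 7351 to 8649 TPM in IUHG gonads, the 6 interstitial genes to 862 to 1028 and 623 to 721 TPM, the 6 immediate early genes to 394 to 896 and 226 to 339 TPM, and the 6 germ cell genes to 500.0 to 587 and 659.9 to 817 TPM. Of the 4 Sertoli genes, which summed to 33.0 to 230 and 24.2 to 30.4 TPM, 4 in control and 3 in IUHG gonads were above 1 TPM. Their part in the changes of the members was not tested.

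Sorted E12.5 PGCs gave no member at an adjusted p under 0.05 in limma on log2(TPM + 1), where 1.58% of all genes passed and 0.247% were called; 7 of 29 had an unadjusted p under 0.05, as had 15.7% of all genes. *Xbp1* was at 91.0, 75.3 and 91.2 TPM in controls and 52.8, 41.4 and 63.6 TPM under IUHG, without overlap (−0.71, SE 0.16, limma adjusted p = 0.06). It passed in 4 settings that kept every library: FPKM in place of TPM (−0.75, adjusted p = 0.033), median-of-ratios scaling (−0.75, 0.03), the replicate number as a block (−0.71, 0.036) and 1 fit over all 30 PGC libraries (−0.71, 0.008). Left without IUHG replicate 3, its difference was −0.86 (adjusted p = 0.0094). *Asns* was at 328, 299 and 323 TPM in controls and 432, 371 and 479 TPM under IUHG (0.42, SE 0.11, adjusted p = 0.1). In the E12.5 libraries, whose labels give no sex, the Y-linked genes summed to 194 to 212 TPM in control and 130 to 154 TPM under IUHG. In control E13.5 PGCs mean *Xbp1* was 36.65 TPM in females and 52.1 TPM in males, and mean *Asns* 283 and 109 TPM. In PGCs labelled male, control and IUHG Y-linked sums were 151 to 183 and 116 to 120 TPM at E13.5. At E16.5 they lay the other way, at 78.1 to 98.8 and 116 to 123 TPM. Whether the share of each sex had a part in the E12.5 differences was not tested. Lower without overlap were 8 members, beside 9.12% of all genes, and higher 2, beside 13.3%. The germ cell genes summed to 7733 to 8375 TPM in control and 6811 to 7614 TPM in IUHG libraries. The interstitial genes, of which 2 and 0 of 6 were above 1 TPM, summed to 3.90 to 5.46 and 1.34 to 1.99 TPM. The Sertoli genes, with 2 and 1 of 4 above 1 TPM, summed to 2.80 to 4.03 and 1.75 to 2.104 TPM. The endothelial genes summed to 123 to 132 and 147 to 165 TPM, with 1 of 4 above 1 TPM in each group. The part of these marker genes was not tested.

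In E13.5F PGCs *Dnajb11* was the 1 of 31 members that passed an adjusted p of 0.05 in limma on log2(TPM + 1). It was at 355, 325 and 350.1 TPM in controls and at 166, 186 and 202 TPM under IUHG, so that every IUHG library lay under every control, and it fell by 0.90 (SE 0.16, limma adjusted p = 0.022). The background was 3.05% of all genes at an adjusted p of 0.05, and none of 31 members was called beside 0.514%; 9 had an unadjusted p under 0.05 (23.4% of all genes). *Sdf2l1* was at 88.6, 82.6 and 90.7 TPM against 55.5, 56.8 and 54.5 TPM (−0.64, adjusted p = 0.079). *Atf3* was at 7.99, 6.55 and 7.86 TPM against 4.09, 3.08 and 1.03 TPM (−1.28, adjusted p = 0.1). Neither gene's groups overlapped, and 14 of 31 members showed no overlap beside 33.0% of all genes. *Asns* was at 283, 299 and 267 TPM against 401, 344 and 484 TPM (0.52, adjusted p = 0.13) and *Hspa5* at 648 and 537 TPM (−0.28, adjusted p = 0.35).

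In E13.5F PGCs the calls changed with the libraries used. The 3.05% of all genes above is from the fit with every E13.5F library and no other. No such share is given for the fits below. Without the divergent IUHG replicate 3, 5 members passed: *Dnajb11* (−0.96, limma adjusted p = 0.0011), *Sdf2l1* (−0.63, 0.016), *Dnajc3* (−0.63, 0.029), *Atf3* (−0.89, 0.047) and *Atf4*, which was higher (0.54, 0.048). Without any 1 of the other 5 libraries *Dnajb11* had an adjusted p of 0.056 to 0.17, and with no filter on low TPM it had 0.075. With all libraries kept, *Sdf2l1* passed with FPKM (−0.79, limma adjusted p = 0.041) and with median-of-ratios scaling (−0.8, 0.043). With the replicate number as a block, *Hyou1* (1.11, 0.029), *Edem1* (0.95, 0.046) and *Canx* (0.87, 0.047) passed and were higher. Mean *Hyou1* was 14.7 TPM in controls and 34.3 TPM under IUHG. With 1 fit over all 30 PGC libraries, 13 members passed, 7 higher and 6 lower. These counts stand without the share of all genes that passed in that fit. The 6 immediate early genes listed, which do not include *Atf3*, summed to 656 to 769 TPM in control and 299 to 333 TPM in IUHG libraries. The 6 germ cell genes summed to 5196 to 5446 and 5839 to 6518 TPM, although 1 of them was called lower (0.435% of all genes). The 4 endothelial genes, of which 1 was above 1 TPM in each group, summed to 51.2 to 69.8 and 89.3 to 209 TPM. The part of these marker genes was not tested.

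E13.5M PGCs had 11 of 31 members at an adjusted p under 0.05, 7 higher and 4 lower, a share near the 33.3% of all genes that passed there (15.2% higher and 18.0% lower). None was called by limma beside 3.92% of all genes, and 14 had an unadjusted p under 0.05 (43.9% of all genes). *Pdia6*, at 299, 327 and 323 TPM in controls and 384, 384 and 403 TPM under IUHG, rose by 0.30 (SE 0.05, adjusted p = 0.0013). *Dnajc3*, at 12.6, 14.2 and 14.5 TPM against 18.6, 18.4 and 19.6 TPM, rose by 0.43 (SE 0.09, adjusted p = 0.0044). Neither gene's groups overlapped, and 18 of 31 members showed no overlap beside 47.1% of all genes. *Edem1* (0.45), *Hyou1* (0.33), *Asns* (0.27), *Sdf2l1* (0.26) and *Canx* (0.22) rose as well. *Atf3* fell by 0.83 (adjusted p = 0.0032), *Trib3* by 0.31, *Ppp1r15a* by 0.25 and *Hspa5* by 0.13 (adjusted p = 0.027). The *Hspa5* difference missed 0.05 in 4 of 6 fits that left out 1 library (adjusted p up to 0.1), with FPKM (0.07), with no filter on low TPM (0.066), with median-of-ratios scaling (0.066) and in 1 fit over all 30 PGC libraries (0.5). In that fit *Pdia6* and *Dnajc3* passed and the other 9 did not. With 1 library left out, *Hyou1* missed 0.05 in 3 of 6 fits and *Trib3* and *Ppp1r15a* in 1 each; with no filter *Hyou1* (0.063), *Trib3* (0.062) and *Asns* (0.078) missed it too. Control replicate 1 held 76.2 TPM of blood genes, against 2.08 and 0.911 TPM in control replicates 2 and 3. Without it *Calr* (−0.2, limma adjusted p = 0.0082), *Hsp90b1* (−0.17, 0.011), *Herpud1* (−0.53, 0.015) and *Ppp1r15b* (−0.3, 0.044) also passed and were lower. Without IUHG replicate 3 *Ern1* passed and was higher (0.6, 0.033). Immediate early genes summed to 309 to 333 TPM in control and 209 to 214 TPM in IUHG libraries, and the interstitial genes, of which 4 of 6 in control and 0 of 6 in IUHG libraries were above 1 TPM, to 17.0 to 20.5 and 2.21 to 4.42 TPM. The 6 germ cell genes, 4 of them lower at an adjusted p of 0.05, summed to 8927 to 9612 and 7831 to 8134 TPM. The Sertoli genes summed to 10.8 to 11.7 and 7.68 to 9.86 TPM, and the Y-linked genes to 151 to 183 and 116 to 120 TPM. The endothelial genes, of which 1 of 4 was above 1 TPM in each group, summed to 46.7 to 52.3 and 73.1 to 83.5 TPM. The pregranulosa genes, with 1 and 2 of 5 above 1 TPM, summed to 2.69 to 3.35 and 3.58 to 4.93 TPM. The part of these marker genes was not tested.

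At E16.5F *Dnajb11* lay the other way. It was at 416, 402 and 416 TPM in controls and at 636, 619.8 and 645 TPM under IUHG, and rose by 0.62 (SE 0.07, limma adjusted p = 0.0023). *Hspa5* was at 2297, 2382 and 2291 TPM against 2751, 2735 and 2822 TPM and rose by 0.25 (SE 0.05, adjusted p = 0.021). The groups did not overlap at either gene. Members at an adjusted p of 0.05 were 2 of 31, beside 5.64% of all genes, and none was called beside 0.736%; 13 had an unadjusted p under 0.05 (22.8% of all genes). *Dnajb11* kept an adjusted p of at most 0.031 under every alternative tried, whereas *Hspa5* missed 0.05 in 4 of 6 fits that left out 1 library and in 3 of 6 other settings. Without IUHG replicate 1, 2 or 3, *Dnajb11* had an adjusted p of 0.007, 0.0043 and 0.022, and *Hspa5* of 0.044, 0.028 and 0.1. Summed chaperone TPM was 6868, 6892 and 6962 in controls and 7679, 8095 and 8167 under IUHG, and 11 of 14 differences were positive, with a median of 0.20 against 0.04 over all genes. The interstitial genes summed to 12.6 to 25.4 TPM in control and 36.2 to 41.5 TPM in IUHG libraries, with 4 and 5 of 6 above 1 TPM and *Cyp11a1* at 0 in all. The Sertoli genes, with 2 and 0 of 4 above 1 TPM, summed to 2.67 to 4.63 and 1.46 to 2.16 TPM. The 6 germ cell genes summed to 2971 to 3291 and 2619 to 2974 TPM. Of these 6, 3 were lower at an adjusted p of 0.05 (3.08% of all genes) and 1 was called. The part of these marker genes was not tested.

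The sensor *Ern1* was at 8.96, 8.11 and 9.98 TPM in E16.5F controls and at 19.6, 16.8 and 15.4 TPM under IUHG, without overlap (0.86, SE 0.22, limma adjusted p = 0.051). Its mRNA substrate *Xbp1* was at 80.3, 77.2 and 76.6 TPM against 66.0, 49.8 and 51.1 TPM (−0.49, SE 0.14, adjusted p = 0.078). *Ddit3* was at 63.7, 69.5 and 65.6 TPM against 23.8, 53.1 and 38.8 TPM (−0.84, SE 0.25, adjusted p = 0.083). In these 3 genes the IUHG libraries lay wholly above or below the controls without passing the test; 10 members were higher without overlap (14.9% of all genes) and 4 lower (14.1%). In 1 fit over all 30 PGC libraries all 3 passed, *Ern1* at an adjusted p of 0.027, *Xbp1* at 0.017 and *Ddit3* at 0.011, and with FPKM *Ern1* (0.045) and *Xbp1* (0.045) did. Left without IUHG replicate 1, *Xbp1* passed (−0.62, adjusted p = 0.037), and left without IUHG replicate 2, *Ddit3* did (−1.10, adjusted p = 0.022). Higher were *Hsp90b1* in the first of these fits (0.32, limma adjusted p = 0.041) and *Manf* in the second (0.51, 0.04). Outside the 32, the folding enzyme *P4hb* (0.49), the eIF2 subunit *Eif2s1* (0.76), *Eif2b3* (0.65) of its exchange factor, the translocon subunit *Sec61a1* (0.50) and the extraction ATPase *Vcp* (0.55) rose, and *Sec61b* (−0.48) and *Derl3* (−1.05) fell. Of 16 ER entry and degradation genes 3 rose and 2 fell, and 1 of 11 other ER folding and 2 of 9 eIF2 genes rose. Only lower were 2 of 11 cytosolic heat shock, 2 of 8 mitochondrial and 1 of 18 ATF4 target genes. The limma threshold was an adjusted p of 0.05, passed by 2.56% of all genes as higher and 3.08% as lower.

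At E16.5M 3 of 32 members had an adjusted p under 0.05, beside 5.93% of all genes. *Atf3* was at 7.43, 8.50 and 13.7 TPM in controls and 3.65, 3.79 and 3.84 TPM under IUHG and fell by 1.15 (SE 0.21, limma adjusted p = 0.019). *Canx*, at 51.6, 47.7 and 45.8 TPM against 61.3, 64.2 and 72.9 TPM, rose by 0.44 (adjusted p = 0.028), and *Creld2* fell by 0.19 (adjusted p = 0.044). At none of the 3 did the groups overlap, and 9 of 32 members showed no overlap beside 29.8% of all genes. *Creld2* did not pass with any 1 library left out, *Canx* did not in 4 of 6 such fits and *Atf3* in 2. With no filter on low TPM none of the 3 passed (*Atf3* 0.079, *Canx* 0.08 and *Creld2* 0.11), and *Canx* and *Creld2* did not with the replicate number as a block (0.066 and 0.092) or in 1 fit over all 30 PGC libraries (0.24 and 0.22). None was called (0.201% of all genes), and 9 had an unadjusted p under 0.05 (23.9% of all genes). Of the genes high at this stage, *Asns*, at 428 and 388 TPM, and *Ddit3*, at 93.1 and 91.0 TPM, had an adjusted p of 0.24 and 0.86. Immediate early genes summed to 202 to 245 TPM in control and 132 to 145 TPM in IUHG libraries blood genes to 252 to 576 and 58.9 to 284 TPM, Sertoli genes to 10.8 to 11.9 and 8.67 to 10.3 TPM and Y-linked genes to 78.1 to 98.8 and 116 to 123 TPM; their part was not tested.

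Read across the 6 comparisons of IUHG with control, *Hspa5* fell in gonads and at E13.5M and rose at E16.5F. Each of these *Hspa5* calls was lost with some library left out. *Atf3* fell at E13.5M and E16.5M. Its mean was also lower under IUHG in gonads (16.3 and 3.20 TPM) and at E13.5F (7.47 and 2.73 TPM), without overlap and without passing. In 1 fit over all 30 PGC libraries it passed at E13.5F (−1.28, limma adjusted p = 0.00099). Control and IUHG means of *Atf3* were 20.4 and 23.4 TPM at E16.5F and 0.645 and 0.864 TPM at E12.5. No comparison passed for *Ern1*, *Atf6*, *Eif2ak3*, *Eif2ak4*, *Xbp1*, *Atf4*, *Atf5*, *Ddit3* or *Chac1* in limma on log2(TPM + 1) with the libraries of each comparison fitted on their own. Under other settings that kept all libraries, *Xbp1* passed at E12.5 and E16.5F, *Ern1* at E16.5F and, in 1 fit over all 30 PGC libraries, at E13.5F (0.87, adjusted p = 0.022), and *Ddit3* at E16.5F; the other 6 of these 9 passed in none. The difference in *Atf4* ran from −0.31 in gonads to 0.34 at E13.5F, in *Eif2ak3* from −0.13 at E16.5F to 0.26 at E13.5F, in *Eif2ak4* from −0.29 at E16.5F to 0.16 at E12.5, and in *Atf6* from −0.34 at E12.5 to 0.54 at E16.5M. A p that misses the threshold does not show that levels were equal.

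**Figure D5:**
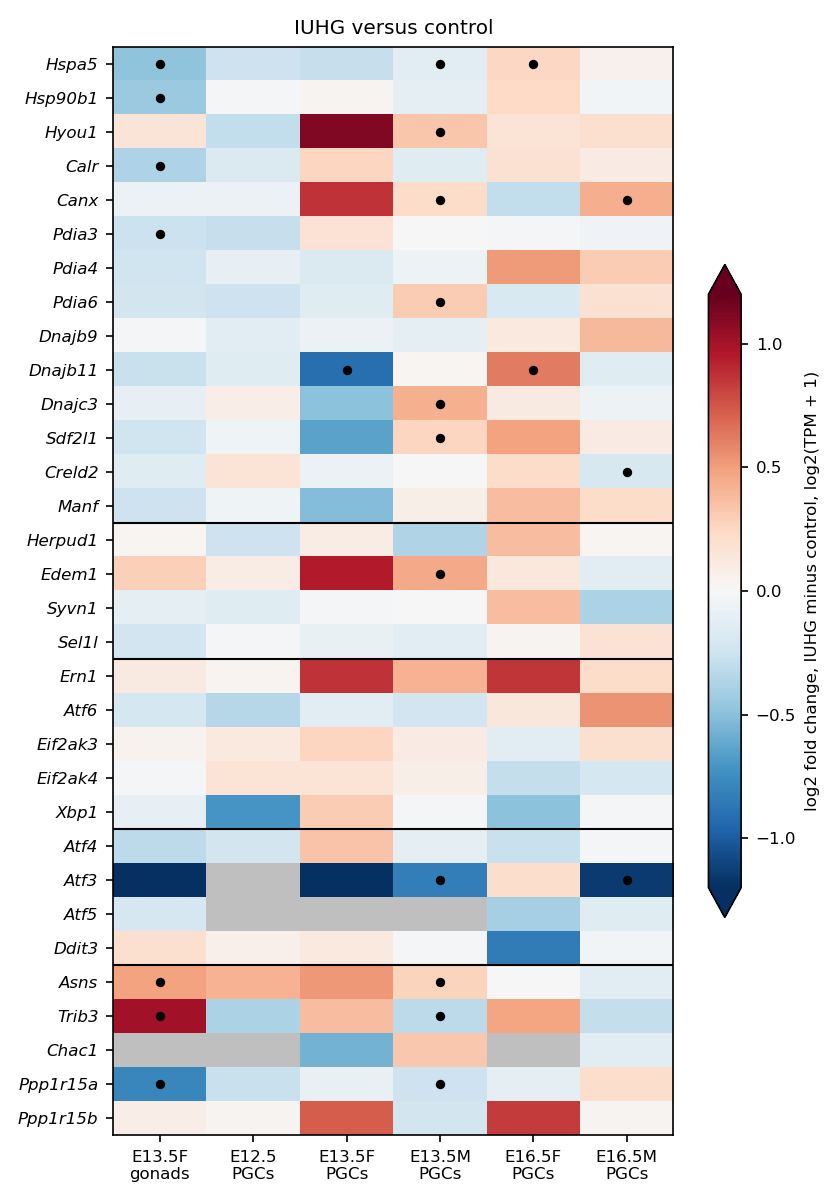
Log2 fold change of each member (rows, by role) in the 6 comparisons of IUHG with control (columns), on a scale from blue (lower under IUHG) to red (higher) that ends at 1.2 in each direction. Black dots mark an adjusted p under 0.05, and grey marks members under 1 TPM in both groups, which were not tested. Dnajb11 is at −0.90 in E13.5F and 0.62 in E16.5F PGCs.

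Whether the response to IUHG differed between sexes or stages was tested as an interaction. At E13.5 the female response was lower than the male one by −0.92 for *Dnajb11* (SE 0.14, limma adjusted p = 0.0019) and by −0.91 for *Sdf2l1* (SE 0.15, adjusted p = 0.0026); male *Dnajb11* was at 110.0, 111 and 112 TPM in controls and 113, 113 and 113 TPM under IUHG, and male *Sdf2l1* at 63.1, 59.2 and 63.0 TPM against 79.8, 70.9 and 72.6 TPM. These were 2 of 31 members at an adjusted p under 0.01, beside 3.20% of all genes. *Dnajc3* (−0.92, adjusted p = 0.017), *Pdia6* (−0.46, 0.042) and *Trib3* (0.68, 0.045) passed 0.05, which 9.88% of all genes did. Between female stages the response of *Dnajb11* at E16.5 exceeded that at E13.5 by 1.52 (SE 0.16, adjusted p = 6.7e-05) and that of *Sdf2l1* by 1.12 (SE 0.22, adjusted p = 0.009), 2 of 32 members beside 1.93% of all genes; *Manf* (0.88, 0.043) also passed 0.05, as did 6.17% of all genes. *Dnajb11* stayed under 0.01 in both of these tests with any 1 library left out, whereas *Sdf2l1* was not under it in 4 of 12 such fits between the sexes and in 10 of 12 between female stages. Between male stages 1 of 32 members passed, beside 8.29% of all genes: the response of *Dnajc3* was lower at E16.5 by −0.49 (SE 0.10, adjusted p = 0.0064), with 34.7, 35.1 and 35.7 TPM in E16.5M controls and 35.1, 32.7 and 33.0 TPM under IUHG; it was under 0.01 in 2 of 12 fits that left out 1 library, and not with the replicate block (0.015) or in 1 fit over all PGC libraries (0.13). At an adjusted p of 0.05, passed by 17.2% of all genes, 6 more did, *Atf6* (0.77), *Dnajb9* (0.51), *Ppp1r15a* (0.46), *Pdia4* (0.36), *Asns* (−0.41) and *Edem1* (−0.58).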

How the data were processed

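RNA was sequenced from 6 gonad and 30 PGC libraries, and the deposited gene tables hold StringTie abundances. The authors aligned gonad reads with HISAT2 and PGC reads with STAR, keeping unique reads. The submitters' processing notes name mm39 as the only build, with featureCounts, DESeq2, FastQC and Trim Galore, whereas the methods name mm9 for gonads and mm39 for PGCs. The deposited position of *Hspa5* starts at chr2:34771970 in gonads and chr2:34661982 in PGCs, so the tissues do not share a build. The authors deposited TPM, their main normalized value, and FPKM, which scales by mapped reads and length; the deposited coverage is mean read depth over a gene. No read counts were used. Promoter positions are those of the RefSeq table, GRCm38.p6.

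The members and all gene lists were chosen with earlier results of these data known. Each of 15 comparisons was fitted on its own groups with limma 3.58.1 (R 4.3.3; lmFit and eBayes with a mean trend, two-sided) on log2(TPM + 1), for genes with a mean of at least 1 TPM in a compared group, with Benjamini-Hochberg adjustment over all such genes. A fold change on this scale understates the change of low genes. Calls needed an adjusted p under 0.05 and at least a 2-fold change in gonads, under 0.01 and over 2-fold in PGCs, and under 0.01 for interactions. Named were members at an adjusted p under 0.05 for IUHG, the 6 called members with the largest changes in each direction between stages and sexes, 13 sensors, factors and targets always, members with an interaction, and the 2 highest and 2 lowest by mean TPM in each tissue; any further gene named was chosen after its values were seen. The smallest p of an exact permutation test of 3 against 3 is 0.1, so none was used. The script was tested on simulated data.

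The settings also tried were median-of-ratios scaling, FPKM as the unit, no minimum TPM, a pseudocount of 0.1, 1 fit over all PGC libraries, a replicate block, an adjusted p of 0.05 in the call rule and leaving out each library. Shares of all genes that passed belong to the reported fits on log2(TPM + 1), and none is given for these settings. The deposited values give no count intervals; aligned bases estimated from the deposited coverage give the only depth. Python 3.11.15 with pandas 2.3.3 and matplotlib 3.10.9 made the tables and figures.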

Additional observations from a re-analysis of the deposited data

Results flagged for a closer look

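A difference in the response to IUHG between sexes or stages, by a test of the difference itself, was found for 5 results of 3 members. At E13.5 the IUHG effect in female PGCs minus that in male PGCs was −0.92 log2 for *Dnajb11* (SE 0.14, limma adjusted p = 0.0019) and −0.91 for *Sdf2l1* (SE 0.15, adjusted p = 0.0026). In females the effect at E16.5 minus that at E13.5 was 1.52 for *Dnajb11* (SE 0.16, adjusted p = 6.7e-05) and 1.12 for *Sdf2l1* (SE 0.22, adjusted p = 0.009). In males the same difference was −0.49 for *Dnajc3* (SE 0.10, adjusted p = 0.0064). *Dnajb11* was past 0.01 in both interactions under every alternative tried, *Sdf2l1* was not in 4 of 12 fits that left out 1 library between the sexes, in 10 of 12 between female stages and, between female stages, with no filter (0.012) or with a replicate block (0.014). *Dnajc3* was past it in 2 of 12 fits that left out 1 library and was not with a replicate block (0.015) or in 1 fit over all PGC libraries (0.13). The E13.5F groups enter both female results, so these share their libraries.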

How the results depend on the processing

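Of 169 differences of a member with an adjusted p under 0.05, 2018 values were recomputed; 2014 kept their direction, 1799 also kept an adjusted p under 0.05 and 215 did not. The 4 that turned did so under median-of-ratios scaling: *Dnajb11* between E16.5F and E13.5F (-0.00), *Sel1l* between E16.5M and E13.5M (−0.07), *Pdia6* between E13.5F and E13.5M (−0.02) and *Pdia3* between E16.5F and E16.5M (−0.09). The cause was not tested.

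The number of members called changed as follows. In gonads it was 1 (*Trib3*), 0 with FPKM or no filter, and 0 to 1 with 1 library left out. Calls appeared at E13.5F in 1 fit over all PGC libraries (2, *Atf3* and *Hyou1*), at E13.5M with a pseudocount of 0.1 (1, *Atf3*) and at E16.5M with an adjusted p of 0.05 in the rule (1, *Atf3*). For E13.5F against E12.5 the 5 calls became 3 to 6 with 1 library left out (3 without control E12.5 replicate 2 or control E13.5F replicate 1). The 2 calls of the sex interaction became 5 at an adjusted p of 0.05, 4 in the fit over all PGC libraries and 1 to 5 with 1 library left out (5 without IUHG E13.5F replicate 3; 1 without control E13.5M replicate 2 or 3 or IUHG E13.5M replicate 1 or 3). The 2 of the female stage interaction became 1 with no filter, 7 over all PGC libraries and 1 to 2 with 1 library left out (2 without IUHG E13.5F replicate 3 or control E16.5F replicate 2). The 1 of the male stage interaction became 7 at an adjusted p of 0.05, 3 with FPKM, 3 with median-of-ratios scaling, 0 over all PGC libraries and 0 to 1 with 1 library left out.

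Replicate numbers did not pair the samples: correlations of same-numbered deviations ran from −0.08 to 0.13, and no comparison had all of them over 0.1. A fit with the replicate number as a block gave 0 calls in gonads (1 without the block), 1 in the female stage interaction (2 without) and 0 in the male one (1 without). With 3 samples a group and no counts, small differences in genes near 1 TPM were not detectable.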

Other observations

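Chaperones outside the ER were compared in the same libraries. Of 12 cytosolic heat shock genes tested, 11 were lower and 1 higher in control E16.5F than in E16.5M PGCs (limma adjusted p under 0.05, where 38.9% of all genes were lower); *Hspa1a* was at 2.34 ± 0.567 TPM in females and 21.7 ± 1.05 TPM in males, a difference of −2.78, and *Hspa1b* differed by −2.92. Under IUHG, *Hspa1a* fell by 1.05 and *Hspa1b* by 1.13 in E13.5M PGCs, where 7 of 12 such genes fell and 2 rose, beside 18.0% and 15.2% of all genes, and *Hspa1a* fell by 0.85 in E16.5M PGCs. In gonads *Hsp90aa1*, the inducible cytosolic HSP90, went from 508 ± 18.7 to 692 ± 29.4 TPM and rose by 0.45 (limma adjusted p = 0.0061), while its ER relative *Hsp90b1* fell. *Hspa4*, a cytosolic HSP110 protein, rose by 0.38 (adjusted p = 0.0096), and its ER relative *Hyou1* was at 97.2 ± 1.42 and 108 ± 5.58 TPM (0.15, adjusted p = 0.16). In E16.5F PGCs *Hsp90aa1* fell by 0.31 (adjusted p = 0.012). Of 8 mitochondrial chaperones and proteases, 1 rose in gonads, *Hspa9* (0.22, adjusted p = 0.048), and 5 fell and 1 rose in E13.5M PGCs, where 18.0% of all genes were lower and 15.2% higher.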
